A study of Mus musculus with 42 samples.

Results

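The genes described here encode the lipases and lipase regulators of plasma triacylglycerol handling: lipoprotein lipase (Lpl), hepatic lipase (Lipc), the endothelial lipase anchor GPIHBP1 (Gpihbp1) and the angiopoietin-like proteins 4, 6 and 8 (Angptl4, Angptl6, Angptl8). They were chosen by name, all 6 were found among the 54532 genes of the read count table, and all 6 passed the filter for testing, a mean of 25 or more counts over the libraries, as 13394 genes did. The libraries were made from liver of female C57BL/6 mice (substrain C57BL/6NHsd in the study's methods) that ate AIN93G, with 16% of energy from fat, or a high-fat diet (HFD), with 45% of energy from fat, both made with soybean oil. The mice started the diets at 3 weeks of age, ate them without restriction for 3 weeks and were not fasted before they were killed. Each diet had 3 libraries at each of 7 Zeitgeber times (ZT), 4 h apart from ZT 0, when the lights came on, to ZT 24, with darkness from ZT 12, and all 42 libraries were used. No transgene, deletion or drug distinguished the groups. Each library is named below by its diet, time and replicate number.

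Triacylglycerol in chylomicrons and very-low-density lipoproteins is hydrolysed in capillaries of fat, heart and muscle by LPL, which is made by adipocytes and muscle fibres and carried to the capillary lumen by GPIHBP1. Adult hepatocytes make hepatic lipase, which acts on lipoprotein remnants and high-density lipoproteins in the liver sinusoids, and they express little LPL. The angiopoietin-like proteins are secreted. ANGPTL4 inactivates LPL and is known as a gene raised by fasting and by PPAR nuclear receptors, whereas ANGPTL8 is raised by feeding and insulin and acts on LPL together with a second angiopoietin-like protein. ANGPTL6 is made mainly by the liver and is not an established LPL inhibitor.

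Not all libraries had the transcripts of liver. In 32 libraries the hepatocyte gene Alb was over 10000 CPM (counts scaled to the total count of the library), and the 8 hepatocyte markers summed to between 103919 and 152481 CPM. In the other 10 libraries these markers summed to between 27.5 and 111 CPM, whereas the 9 adipocyte markers summed to between 17927 and 29276 CPM, against 40.7 to 115 CPM in the 32. Alb, which set the split, is 1 of the 8 and most of their sum. Of the other 7, which the split did not use, Ahsg had a median of 9841 CPM in the 32 libraries and 1.16 CPM in the 10, and Apoa1 6963 and 0.799 CPM. These 10 libraries, called adipocyte-rich here, were all 3 AIN93G libraries at ZT 16, all 3 at ZT 20, replicates 1 and 2 at ZT 24 and HFD replicates 1 and 2 at ZT 24. The library labels also carried a phase, light or dark, under which the ZT 12 libraries were split: AIN93G replicate 2 and HFD replicate 3 were labelled light and the other 4 dark. Total counts ranged from 14592481 to 21368409 a library. The study's methods describe several mice killed per diet and time and 3 RNA extractions sequenced from them, and neither they nor the labels say that each extraction was of a different mouse, so the p-values measure the spread between these libraries.

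In the mm10 coordinates of the count table, Lpl lies at chr8:68880491-68907448 on the plus strand, Lipc at chr9:70798128-70952226 on the minus strand and Gpihbp1 at chr15:75596628-75599481 on the plus strand. Angptl4 lies at chr17:33773750-33781575 on the minus strand, Angptl6 at chr9:20873808-20879727 on the minus strand and Angptl8 at chr9:21835510-21837347 on the plus strand. In the GENCODE M21 annotation Angptl8 is contained in Dock6, which is on the opposite strand, with no shared exonic base. Of the 1582 exonic bases of Angptl6, 265 are shared with A230050P20Rik on the opposite strand. The strand setting of the counting is not given in the sources used here, so reads from that stretch could not be assigned with certainty and the Angptl6 values carry this limit. No exon of the other 4 genes overlapped another gene.

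RefSeq promoter sequence (GRCm38.p6) was at hand for 3 of the 6 genes. The 250 bases before the start are shown for Angptl8, the member with the largest fitted diet difference in liver, and for Lipc, the member with the steadiest level in liver. They were searched on both strands for the E-box CACGTG bound by clock factors, the E-box core CANNTG, of which CACGTG is one form, the nuclear receptor half-site AGGTCA, the CCAAT box and TATAAA; capitals mark every match.
Angptl8, chr9:21835260-21835509, plus strand: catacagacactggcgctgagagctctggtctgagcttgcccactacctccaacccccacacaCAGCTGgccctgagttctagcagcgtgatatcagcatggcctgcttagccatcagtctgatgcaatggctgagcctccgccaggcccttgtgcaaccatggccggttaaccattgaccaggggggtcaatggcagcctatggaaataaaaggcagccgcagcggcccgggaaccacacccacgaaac
Lipc, chr9:70952222-70952471, minus strand: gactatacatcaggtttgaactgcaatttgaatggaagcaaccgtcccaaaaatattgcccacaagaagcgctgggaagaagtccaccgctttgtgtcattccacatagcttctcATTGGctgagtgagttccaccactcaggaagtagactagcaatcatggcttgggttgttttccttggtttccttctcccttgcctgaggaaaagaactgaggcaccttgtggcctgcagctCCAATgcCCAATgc
The Angptl8 window held 1 E-box core, beginning 187 bases before the start, a motif that 66.2% of all 32851 promoters hold in the same window. The Lipc window held CCAAT boxes beginning 14 and 7 bases before the start and 1 on the opposite strand at 135 bases, a motif present in 33.8% of promoters. Neither printed window held CACGTG (6.02% of promoters), AGGTCA (14%) or TATAAA (12.4%). RefSeq lists another Lipc start, inside the gene, whose window was not the one printed and did hold AGGTCA, 88 bases before that start and on the opposite strand at 76, with 3 E-box cores. A match describes letters only, and the absence of one says nothing of a factor.

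In the liver libraries Lipc was the member with the highest level per length. Its median was 104 RPKM (CPM per kilobase of exonic length), with a range of 75.6 to 137 RPKM, so that its lowest library was above the highest library of Angptl4, Angptl6, Gpihbp1 and Lpl. Angptl8 and Angptl4 followed with medians of 33.9 and 31.2 RPKM, and their ranges, 10.2 to 235 and 1.39 to 67.1 RPKM, overlapped. The medians of Angptl6, Gpihbp1 and Lpl were 8.57, 5.34 and 2.88 RPKM, with ranges that overlapped between neighbours. The Lpl length of 10478 bases counts every annotated exon, including those of long retained-intron transcripts, which lowers its level per length.

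In the adipocyte-rich libraries the ends of the order were exchanged: Lpl was first, with a median of 880 RPKM (665 to 1360), and Lipc last, with 0.258 RPKM (0.0846 to 0.771). Between them stood Angptl4 at 82.4 RPKM, Angptl8 at 54.8, Gpihbp1 at 19.1 and Angptl6 at 1.98 RPKM. The median CPM of Lpl was 305-fold higher there than in liver and that of Gpihbp1 3.57-fold higher, whereas that of Lipc was 401-fold lower and that of Angptl6 4.34-fold lower. For these 4 genes the ranges of both sets of libraries did not overlap. The share of all genes with no overlap was not counted, so this does not set the 4 apart from other genes. Angptl4 and Angptl8 had medians 2.64-fold and 1.61-fold higher in the adipocyte-rich libraries, with overlapping ranges. These are descriptions of library sets separated by Alb, with no test. In tissue RNA, fewer cells of a type and less RNA per cell cannot be told apart.

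**Figure D1:**
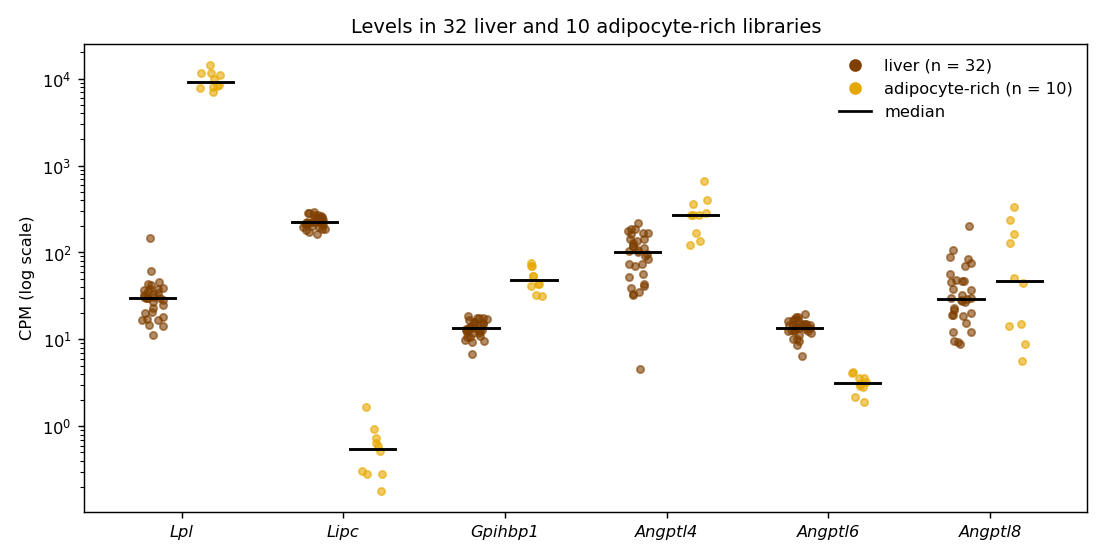
Level of each gene in CPM on a log axis in every library; each point is 1 library, bars are medians, brown the 32 liver and yellow the 10 adipocyte-rich libraries. The point clouds of Lpl, Lipc, Gpihbp1 and Angptl6 do not overlap between the library sets, and those of Angptl4 and Angptl8 do.

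At ZT 16 and ZT 20 all AIN93G libraries were adipocyte-rich and all HFD libraries were liver, so at these times diet and tissue makeup cannot be told apart, and each HFD minus AIN93G difference below is also a liver minus adipocyte-rich difference. By edgeR's quasi-likelihood test, with Benjamini-Hochberg adjustment over all genes tested, 55.7% of genes were called at ZT 16 and 58.6% at ZT 20, at an adjusted p under 0.05. Of the 6 members, 4 were called at each time, 2 higher and 2 lower with the HFD. So large a share of all genes passed the test that these counts say nothing particular about the members.

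Lpl was at 6968, 8123 and 7924 CPM in the AIN93G libraries at ZT 16 and at 16.8, 11.2 and 17.2 CPM in the HFD libraries. At ZT 20 it was at 11039, 7781 and 11492 CPM against 19.9, 18.3 and 33.7 CPM. The groups were far apart at both times, with log2 fold changes of -8.15 ± 0.38 (SE, adjusted p = 5.86e-06) and -8.08 ± 0.45 (adjusted p = 1.52e-06) in edgeR's test. Lipc had the opposite sign. It was at 0.934, 0.307 and 0.651 CPM in the AIN93G libraries at ZT 16 and at 163, 221 and 187 CPM in the HFD libraries, a log2 fold change of 9.07 ± 0.38 (edgeR, adjusted p = 4.21e-06). At ZT 20 its log2 fold change was 9.88 ± 0.28 (edgeR, adjusted p = 9.32e-08). Counts of Lipc in the adipocyte-rich libraries were between 3 and 26 a library, so its low level there carries a large counting error.

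Gpihbp1 was at 40.7, 70.3 and 43.5 CPM in the AIN93G libraries at ZT 16 and at 13.7, 13.9 and 12.8 CPM in the HFD libraries. Its log2 fold change was -1.09 ± 0.24 at ZT 16 (edgeR, adjusted p = 0.00631) and -1.10 ± 0.24 at ZT 20 (edgeR, adjusted p = 0.00467). The 5 markers of the capillary endothelium of fat and muscle, where GPIHBP1 protein sits, summed to between 8108 and 15860 CPM in the adipocyte-rich libraries and to between 23.6 and 72.2 CPM in liver, but nearly all of that sum was Fabp4 and Cd36, with medians of 8431 and 2630 CPM, which are also in the adipocyte list. The other 3, Rgcc, Meox2 and Car4, had medians of 237, 17.4 and 13.7 CPM there and of 0.112, 0 and 0 CPM in liver. The 7 general endothelial markers summed to 349 to 497 CPM against 88.3 to 176 CPM. The 5 markers of liver sinusoid endothelium went the other way, with 4 of 5 higher with the HFD at both times and median log2 fold changes of 4.62 and 5.73. Their part in the Gpihbp1 difference was not tested.

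Angptl6 was at 3.55, 2.15 and 1.89 CPM in the AIN93G libraries at ZT 16 and at 19.6, 14.6 and 16.8 CPM in the HFD libraries, with log2 fold changes of 3.59 ± 0.29 at ZT 16 (edgeR, adjusted p = 6.49e-05) and 2.76 ± 0.20 at ZT 20 (edgeR, adjusted p = 6.76e-06). A230050P20Rik, the gene on its opposite strand, had log2 fold changes of 3.15 and 3.54 at these times.

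Angptl4 and Angptl8 were not called at ZT 16 or ZT 20. Angptl4 was at 121, 665 and 361 CPM in the AIN93G libraries at ZT 16 and at 69.3, 120 and 91.7 CPM in the HFD libraries, which do not overlap, with a log2 fold change of -1.19 ± 0.57 (edgeR, adjusted p = 0.113). Its call depended on the scaling, the tool and single libraries. With the totals alone as the scale the log2 fold change was -2.04 (adjusted p = 0.0139), with DESeq2 -1.21 (adjusted p = 0.0437), and without AIN93G replicate 1 -1.66 (edgeR, adjusted p = 0.00719), whereas without AIN93G replicate 2 it was -0.52 (edgeR, adjusted p = 0.357). At ZT 20 Angptl4 had a log2 fold change of -0.81 ± 0.57 (edgeR, adjusted p = 0.255), which was -1.72 without HFD replicate 3 (adjusted p = 0.0189) and -1.46 with the totals alone as the scale (adjusted p = 0.0385), whereas it was -0.35 without AIN93G replicate 1 (adjusted p = 0.622).

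Angptl8 was at 235, 15.1 and 50.5 CPM at ZT 16 on AIN93G and at 83.1, 27.1 and 203 CPM on the HFD, so the groups overlapped widely, with a log2 fold change of 0.93 ± 1.01 (edgeR, adjusted p = 0.464). Without AIN93G replicate 1 it was 2.48 (adjusted p = 0.0582) and without HFD replicate 3 it was -0.01 (adjusted p = 0.997). At ZT 20 Angptl8 was at 164, 330 and 128 CPM on AIN93G and at 75.2, 89.2 and 19.0 CPM on the HFD, with no overlap and a log2 fold change of -1.14 ± 0.53 (edgeR, adjusted p = 0.0961), or -1.77 with the totals alone as the scale (adjusted p = 0.0178) and -1.15 with no filter on low counts (adjusted p = 0.00394). Without AIN93G replicate 2 it was -0.67 (edgeR, adjusted p = 0.297). Scaling by totals moved the median log2 fold change of all genes to -0.86 at ZT 16 and -0.67 at ZT 20, and the members are to be read against that shift.

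Within liver the diet question could be asked at ZT 0, 4, 8 and 12, where all 24 libraries had hepatocyte transcripts. No member was called at any of these times by edgeR's test on the filtered genes. Over all genes, 0.105% were called at ZT 0 and 0% at ZT 4, ZT 8 and ZT 12. At an unadjusted p under 0.05 edgeR's test found 462, 909 and 554 genes at these 3 times, and DESeq2 called 30, 58 and 5. In the test of diet over all 4 times, 0.134% of genes and 0 of the 6 members were called. DESeq2 called none of the 6 at any of the 4 times or over them, and at an unadjusted p under 0.05 edgeR's test found 1 member, Angptl8, at ZT 0, ZT 8 and ZT 12 and over the 4 times, beside 7.62% of all genes at ZT 0, 6.79% at ZT 8, 4.14% at ZT 12 and 7.83% over them. With no filter on low counts edgeR's test called Angptl8 at ZT 0 (adjusted p = 1.38e-06) and ZT 8 (adjusted p = 0.000954) and Angptl4 at ZT 0 (adjusted p = 0.00184). The log2 fold changes hardly moved, at -0.86 without and -0.85 with the filter for Angptl8 at ZT 0. No-filter p-values are given throughout as a setting, not as a measure of the spread between libraries.

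**Figure D2:**
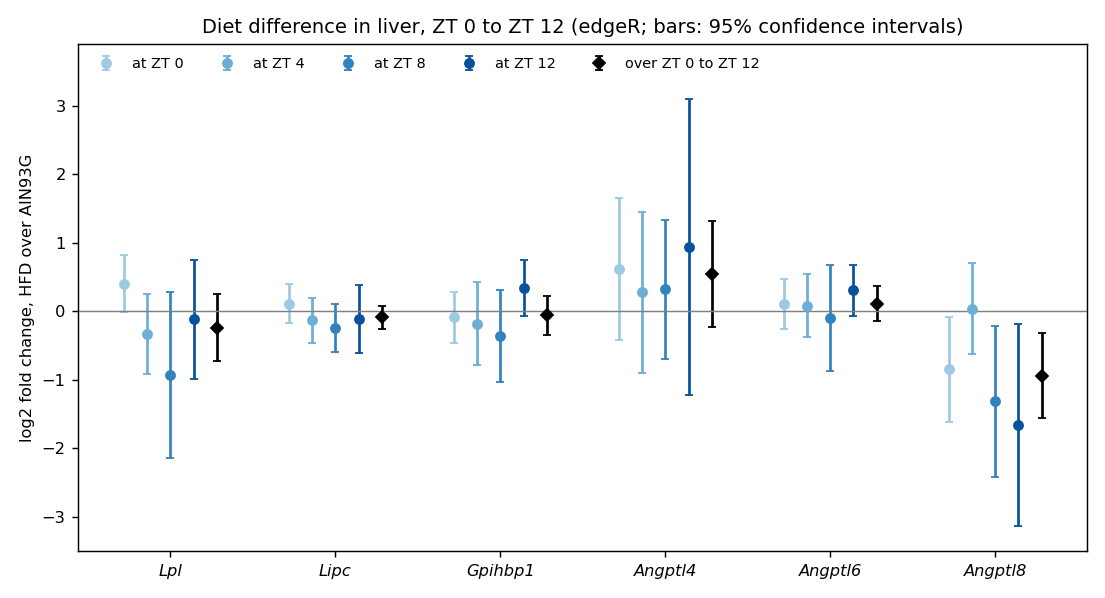
Log2 fold change of HFD over AIN93G for each gene at ZT 0, 4, 8 and 12 (blue, 3 libraries a diet) and over the 4 times (black, 12 libraries a diet), with 95% confidence intervals from edgeR's fits. The intervals of Angptl8 lie below 0 at ZT 0, ZT 8, ZT 12 and over the 4 times before adjustment for the number of genes; only those 4 intervals leave out 0.

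Angptl8 had the largest fitted diet difference of the 6 members over ZT 0 to ZT 12. At ZT 0 it was at 30.3, 20.4 and 47.2 CPM on AIN93G and at 28.3, 12.0 and 15.3 CPM on the HFD. At ZT 4 it was at 29.0, 32.5 and 46.8 CPM against 48.5, 19.1 and 45.6 CPM, with no visible shift. At ZT 8 it was at 56.6, 21.5 and 69.1 CPM against 23.2, 9.59 and 27.5 CPM. At ZT 12 AIN93G libraries were at 18.5, 107 and 37.3 CPM and HFD libraries at 8.80, 12.2 and 29.7 CPM. The diets overlapped at each of the 4 times, and the HFD mean was the lower at ZT 0, 8 and 12. Over the 4 times the log2 fold change was -0.94 ± 0.30 (95% confidence interval -1.57 to -0.32), a fitted level 1.92-fold lower with the HFD in 12 libraries a diet. In edgeR's quasi-likelihood test across all genes the adjusted p was 0.316 (0.00479 before adjustment), and over the alternatives it ran from 0.0277, with no filter on low counts, to 0.53, without AIN93G replicate 2 at ZT 12. With the light-phase libraries alone it was -0.82 (edgeR, adjusted p = 0.209). Diet by time was not called for Angptl8 (edgeR, adjusted p = 0.945), nor for any gene (0%). In that test 717 genes, none of them a member, had an unadjusted p under 0.05, and DESeq2 called 7 genes and no member.

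Angptl4 differed in the other direction in its means, without passing the test. The HFD mean was higher at all 4 times, and over them the mean was 125 CPM with the HFD and 81.3 CPM with AIN93G. The log2 fold change was 0.55 ± 0.38 (95% confidence interval -0.23 to 1.32; edgeR, adjusted p = 0.749). At ZT 0 it was 0.61 with no filter on low counts, the setting in which it was called, and it ran from 0.21 to 1.34 over the alternatives. Replicates spread widely: at ZT 12 the AIN93G libraries were at 167, 4.55 and 94.7 CPM and the HFD libraries at 220, 145 and 169 CPM. AIN93G replicate 2, at 4.55 CPM, was the lowest of all liver libraries and is 1 of the 2 ZT 12 libraries labelled light.

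The lipases and GPIHBP1 gave narrower intervals. Lipc differed by -0.09 ± 0.08 over the 4 times (95% confidence interval -0.25 to 0.08), Gpihbp1 by -0.06 ± 0.14 (-0.35 to 0.22) and Angptl6 by 0.11 ± 0.12 (-0.15 to 0.36), all log2 fold changes of HFD over AIN93G. For Lipc the interval ran from 0.838 to 1.05 as a ratio of HFD to AIN93G. Lpl differed by -0.24 ± 0.24 (-0.73 to 0.25), and adjusted p was between 0.822 and 0.951 for these 4 genes in edgeR's test.

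The sign for Lpl rested on 2 AIN93G libraries that also carried transcripts of other tissues. Lpl was at 147 CPM in AIN93G replicate 2 at ZT 8 and at 61.6 CPM in AIN93G replicate 3 at ZT 4, against 11.2 to 45.8 CPM in the other 30 liver libraries. The 6 skeletal muscle markers summed to 1767 CPM in the former, with Acta1, the skeletal muscle actin, at 524 CPM, against 1.76 to 137 CPM in the other 30. The 9 adipocyte markers summed to 88.0 CPM in it and to 115 CPM in the ZT 4 library, against 40.7 to 72.3 CPM in the other 30. The ZT 4 library also had Ucp1, the uncoupling protein of brown fat, at 24.2 CPM, while its 5 brown adipocyte markers summed to 52.6 CPM, inside the 11.5 to 78.5 CPM of the other 30. LPL is a product of muscle and fat, and the part of these transcripts in the Lpl values was not tested. Without both libraries the log2 fold change of Lpl was 0.14 (edgeR, adjusted p = 0.933), and the choice to leave them out was made after seeing the data.

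**Figure D3:**
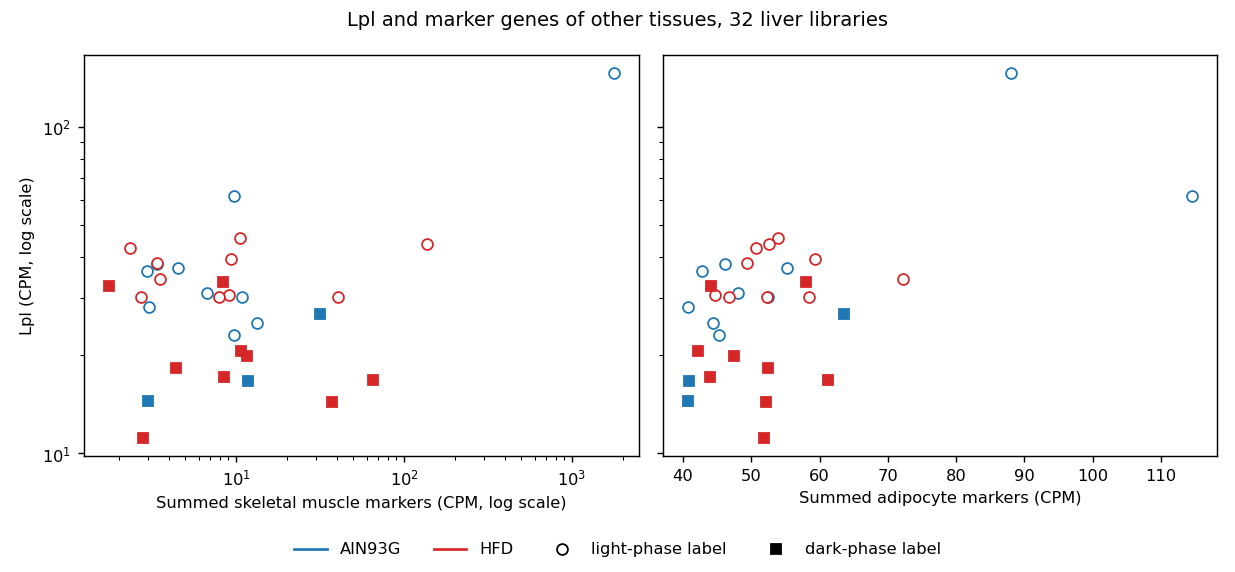
Lpl level (CPM, log axis) in the 32 liver libraries against the summed CPM of 6 skeletal muscle markers (left, log axis) and of 9 adipocyte markers (right, linear axis); blue AIN93G, red HFD, open circles light-phase and filled squares dark-phase labels. The highest Lpl value, 147 CPM, is the library with 1767 CPM of muscle markers, and the second, 61.6 CPM, the library with 115 CPM of adipocyte markers.

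Time of day was compared in liver on AIN93G over ZT 0 to ZT 12 and on the HFD over ZT 0 to ZT 20. On AIN93G 0.0523% of genes and 0 of the 6 members were called. Lpl had an unadjusted p of 0.0226 (edgeR, adjusted p = 0.381), as 9.93% of all genes had one under 0.05, with means of 29.5, 41, 69.4 and 27.1 CPM at ZT 0, 4, 8 and 12, and without both libraries named above its adjusted p was 0.992. With no filter on low counts it was called (adjusted p = 0.000304). DESeq2 called no member.

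On the HFD 2.29% of genes and 0 of the 6 members were called, while DESeq2 called 2, Lpl and Angptl8, among 1511 genes. At an unadjusted p under 0.05 edgeR's test found the same 2 members and 20.1% of all genes. Lpl was at 45.8, 30.1 and 42.6 CPM at ZT 0, at 30.5, 38.4 and 30.3 CPM at ZT 4 and at 30.1, 34.4 and 43.8 CPM at ZT 8. It was at 20.6, 14.4 and 39.3 CPM at ZT 12, at 16.8, 11.2 and 17.2 CPM at ZT 16 and at 19.9, 18.3 and 33.7 CPM at ZT 20. The 3 libraries at ZT 16 were below each library of ZT 0, 4 and 8. In edgeR's test the adjusted p was 0.0997, and it was 0.0102 without HFD replicate 3 at ZT 12, 0.0206 without ZT 12 and 0.0406 when time entered as a 24 h cosine and sine. DESeq2 gave 0.00679, and edgeR with no filter on low counts 1.62e-09. The cosine fitted to log2 CPM had an amplitude of 0.62 ± 0.15 (SE, n = 18) and a peak at ZT 3.73. Within the light-phase and the dark-phase libraries alone the adjusted p was 0.845 and 0.417 in edgeR's test, with fewer libraries and times in each fit.

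The phase label itself went with the Lpl level. The 12 liver libraries labelled dark were at 11.2 to 33.7 CPM with a median of 17.8 CPM. The 18 labelled light, leaving out both libraries with other tissue transcripts, were at 23.1 to 45.8 CPM with a median of 32.7 CPM. At ZT 12, where both labels occur, the light-labelled libraries were at 38 and 39.3 CPM and the dark-labelled ones at 16.6, 26.8, 20.6 and 14.4 CPM. The pattern was noticed in the data, and the label was given by the submitters as a time of day, not as a processing batch.

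Angptl8 had the largest ratio of highest to lowest mean with time on the HFD, 6.19, from 16.9 CPM at ZT 12 to 104 CPM at ZT 16. The libraries at ZT 16 were at 83.1, 27.1 and 203 CPM, those at ZT 20 at 75.2, 89.2 and 19.0 CPM and those at ZT 12 at 8.80, 12.2 and 29.7 CPM. These groups overlapped: the lowest libraries at ZT 16 and ZT 20, at 27.1 and 19.0 CPM, were below the highest at ZT 12, at 29.7 CPM. The unadjusted p was 0.00194 and the adjusted p 0.0589 in edgeR's test. DESeq2 gave an adjusted p of 0.00652. The fitted 24 h cosine peaked at ZT 18.7, in the dark phase, with an amplitude of 0.76 ± 0.39 log2 units (SE, n = 18). Within phase labels the adjusted p was 0.453 for light and 0.123 for dark. The call depended on the tool, the filter and single libraries. With no filter on low counts the edgeR adjusted p was 7.51e-74, a value out of keeping with the overlap of the libraries above and not read as a result. With the filter it was 0.0182 without HFD replicate 3 at ZT 12, 0.0285 without replicate 2 at ZT 16 and 0.0448 without replicate 3 at ZT 20, and it was 0.174 without replicate 3 at ZT 16.

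For the other 4 genes adjusted p was between 0.387 and 0.615 in edgeR's test over time on the HFD, and with no filter on low counts Angptl4 was called (adjusted p = 3.86e-09). Lipc means lay between 190 CPM at ZT 16 and 253 CPM at ZT 4, with a cosine amplitude of 0.18 ± 0.07 log2 units and a peak at ZT 3.32. Angptl6 means lay between 11 CPM at ZT 8 and 17 CPM at ZT 16, Gpihbp1 means between 11.5 CPM at ZT 8 and 16.2 CPM at ZT 12, and Angptl4 means between 82.6 CPM at ZT 4 and 178 CPM at ZT 12. Over all liver libraries the highest value of Lipc was 1.81-fold its lowest, whereas the ratio was 48.4 for Angptl4 and 23.1 for Angptl8.

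**Figure D4:**
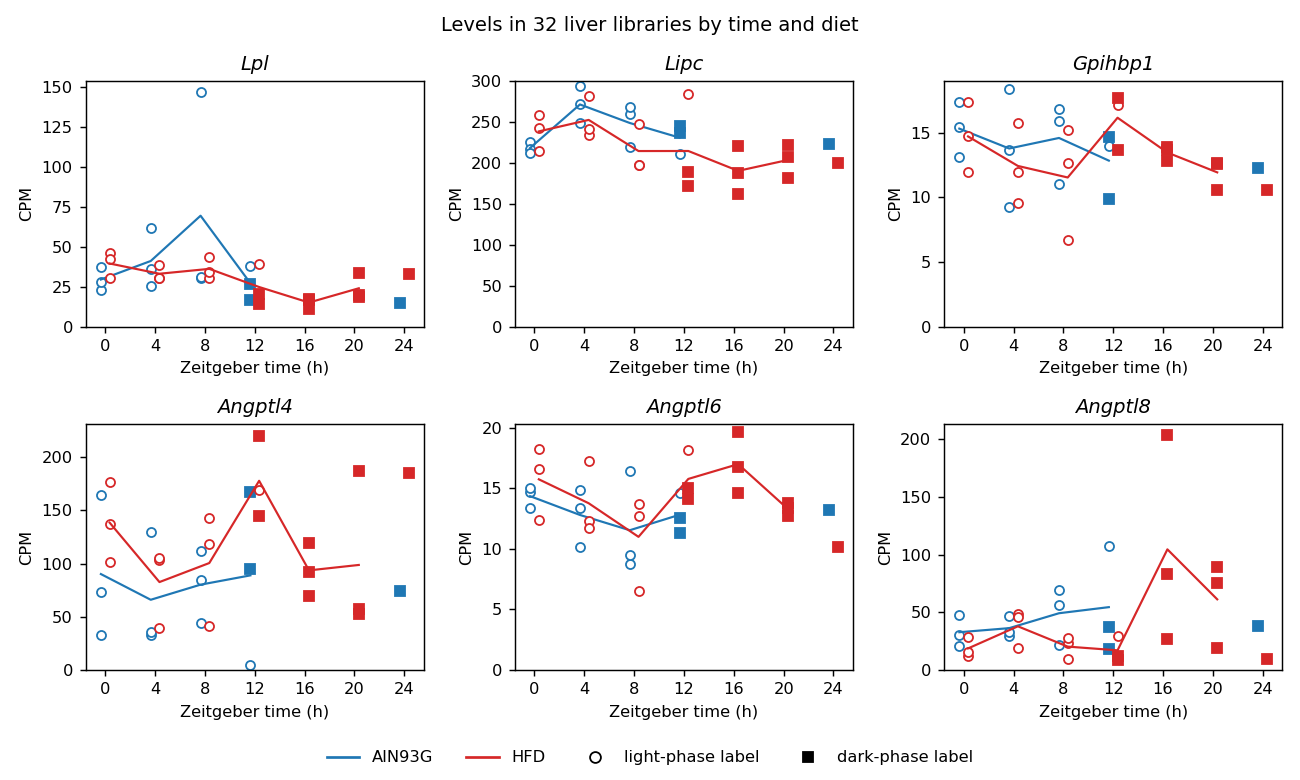
CPM of each gene in the 32 liver libraries against Zeitgeber time in hours, blue AIN93G and red HFD; open circles carry the light-phase and filled squares the dark-phase label, and lines join means of 3 libraries. The Angptl8 mean on the HFD is 16.9 CPM at ZT 12 and 104 CPM at ZT 16, with wide spread, and the Lpl value of 147 CPM at ZT 8 stands apart.

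Angptl4 and Angptl8 varied inversely between liver libraries. Over the 32 libraries Pearson's r of log2 CPM was -0.640 (permutation p = 8e-05, adjusted p = 0.000975) and Spearman's rho -0.788 (permutation p = 1e-05, the smallest that the 100000 permutations can give; adjusted p = 0.00015), with p two-sided and adjusted over the 15 pairs of members. For every pair the permutations moved values freely among the 32 libraries and took no account of diet and time groups. The pair was singled out after its values were seen. AIN93G replicate 2 at ZT 12 had the lowest Angptl4, 4.55 CPM, and 107 CPM of Angptl8, and HFD replicate 1 at ZT 12 had the highest Angptl4, 220 CPM, and the lowest Angptl8, 8.80 CPM. Leaving out the 2 libraries farthest from the Angptl4 median gave r = -0.629. Within AIN93G libraries r was -0.829 (n = 13) and within HFD libraries -0.652 (n = 19); within light-labelled libraries it was -0.742 (n = 20) and within dark-labelled ones -0.830 (n = 12). Deviations from the group means gave r = -0.675 over the 30 libraries whose group had more than 1 liver library. Among all genes tested, 0.0747% (10 of 13393) had a lower r with Angptl8 than Angptl4 did.

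**Figure D5:**
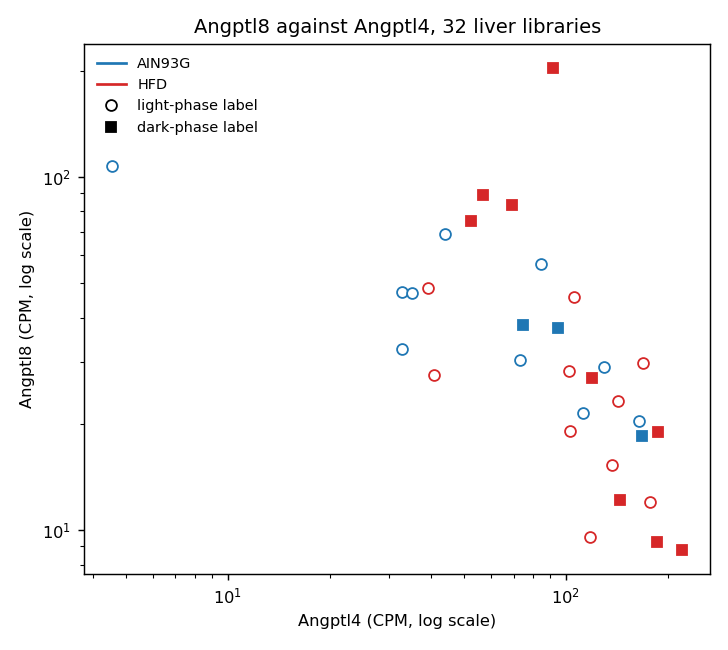
Angptl8 against Angptl4 in the 32 liver libraries, both in CPM on log axes; blue AIN93G, red HFD, open circles light-phase and filled squares dark-phase labels. Libraries with much Angptl4 have little Angptl8 (Spearman's rho -0.788), in both diets and under both labels.

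Gpihbp1 and Angptl6, both low in liver, varied together, with r = 0.660 (permutation p = 0.00013, adjusted p = 0.000975) and rho = 0.581 (permutation p = 0.00064, adjusted p = 0.0048). Within AIN93G r was 0.506 and within the HFD 0.800; within light-labelled libraries it was 0.718 and within dark-labelled ones 0.526. It was 0.447 without the 2 libraries farthest from the Gpihbp1 median and 0.699 for deviations from group means. HFD replicate 3 at ZT 8 was the lowest liver library for both genes, at 6.73 CPM of Gpihbp1 and 6.50 CPM of Angptl6. Of all genes tested, 5.28% had r over 0.5 with Gpihbp1 and 4.18% with Angptl6, so the pair is 1 of many. None of the other 13 pairs passed adjustment; their adjusted p for Pearson's r was between 0.0985 and 0.854.

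Correlations with genes of the fed and the fasted liver were taken for all 6 members. Angptl8 had a positive r with all 12 genes of a list of carbohydrate-responsive and lipogenic genes (median r 0.350, range 0.112 to 0.491), against a median of 0.0232 and 54.5% positive over all genes tested. Angptl4 had a negative r with all 12 (median -0.349) and a positive r with 11 of 12 genes of a list of fasting and PPAR alpha target genes (median 0.400), against 37.8% positive over all genes. Angptl8 had a positive r with 3 of those 12 (median -0.151). Angptl6 had a positive r with 10 of 12 lipogenic genes (median 0.175) and 4 of 12 fasting genes, and Gpihbp1 with 10 (median 0.182) and 3. Lpl, like Angptl4, had a negative r with all 12 lipogenic genes (median -0.168), and Lipc had a positive r with 1 of them (median -0.356). For the fasting genes Lpl was positive with 9 and Lipc with 8. Over all genes tested the share with a positive r was 54.4% for Angptl6, 56.6% for Gpihbp1, 68.4% for Lpl and 55.4% for Lipc. These are descriptions over 32 libraries that share diet and time groups. Genes of 1 list were not shown to vary independently, so a count out of 12 is not to be read as 12 separate observations.

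With diet in liver, calls were made in the lipogenic list at ZT 0 and over ZT 0 to ZT 12, and in neither list at ZT 4, 8 or 12. At ZT 0, 4 of 12 lipogenic genes were called, beside 0.105% of all genes, all lower with the HFD. The 14 genes of the whole table called at ZT 0 were 0 in 1 fit of the 4 times and 1 without AIN93G replicate 2. At ZT 0 Acaca, acetyl-CoA carboxylase, was at a mean of 105 CPM against 365 CPM, Scd1, stearoyl-CoA desaturase, at 1801 against 15232 CPM, and Elovl6, a fatty acid elongase, and the malic enzyme Me1 at 71.8 against 467 and 117 against 458 CPM. Over ZT 0 to ZT 12, 3 of 12 were called, beside 0.134% of all genes, Acaca, Scd1 and Pnpla3, all lower, and the list's median log2 fold change was -0.93, against -0.01 over all genes. Of the 12 fasting genes 0 were called over ZT 0 to ZT 12, with a median of 0.34 and 10 positive values. With time on the HFD 5 of 12 lipogenic genes were called, Mlxipl, Elovl6, Thrsp, Pnpla3 and Pklr, and 0 of 12 fasting genes, beside 2.29% of all genes.

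Of 34 genes of the wider lipase and lipoprotein pathway 29 had enough counts to be tested. None was called for diet in liver at ZT 0, 4, 8 or 12 or over these times, where 16 of 29 had a positive log2 fold change and the median was 0.01. With time on the HFD 1 was called, Sort1, the sorting receptor sortilin, whose mean was lowest at ZT 16, at 5.67 CPM, and highest at ZT 8, at 28.7 CPM (edgeR, adjusted p = 0.00385). At ZT 16 25 of 29 were called, 17 higher and 8 lower with the HFD, and at ZT 20 27, 18 higher and 9 lower, beside 55.7% and 58.6% of all genes, in what is also a comparison of liver with adipocyte-rich libraries. The liver apolipoprotein genes Apoa5 and Apoc3 were among the higher ones, Apoc3 at a mean of 1.70 against 2107 CPM at ZT 16, and Lipe, the hormone-sensitive lipase of adipocytes, was among the lower ones, at 1028 against 12.0 CPM.

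At ZT 24 each diet had 1 liver and 2 adipocyte-rich libraries, and the test across all 6 called 0% of genes, with 67 at an unadjusted p under 0.05 and 3 called by DESeq2. None of the 6 members was called, at an unadjusted p or by DESeq2. The single liver libraries had Lpl at 14.5 CPM on AIN93G and 32.7 CPM on the HFD, Lipc at 223 and 200 CPM and Gpihbp1 at 12.3 and 10.5 CPM. Angptl4 was at 74.4 and 186 CPM, Angptl6 at 13.2 and 10.2 CPM and Angptl8 at 38.1 and 9.24 CPM. These pairs have no replicate check. Scaling by totals moved the median log2 fold change of all genes to 0.24 here and, in the adipocyte-rich comparisons that follow, to -0.15 for ZT 20 against ZT 16 and 0.34 for diet at ZT 24.

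Among the adipocyte-rich libraries Lpl was at 6968, 8123 and 7924 CPM at ZT 16, at 11039, 7781 and 11492 CPM at ZT 20 and at 14248 and 11744 CPM at ZT 24 on AIN93G, and at 9926 and 8525 CPM at ZT 24 on the HFD. The comparison of ZT 20 with ZT 16 called 0.00747% of genes and no member, with Lpl at a log2 fold change of 0.54 ± 0.30 (edgeR, adjusted p = 0.681). No member had an unadjusted p under 0.05 there and DESeq2 called none. At ZT 24 diet called 0% of genes in edgeR's test, where 1628 had an unadjusted p under 0.05 and DESeq2 called 220. Lpl was the member with the smallest p, at a log2 fold change of -0.84 ± 0.36 (edgeR, adjusted p = 0.411). DESeq2 gave an adjusted p of 0.0388, and over the alternatives it ran up to 0.876, without AIN93G replicate 1 at ZT 24. The HFD libraries were both below both AIN93G libraries. Skeletal muscle markers summed to 12199 CPM in AIN93G replicate 2 and to 15181 CPM in HFD replicate 2 at ZT 24 and to 4838 CPM in AIN93G replicate 2 at ZT 16, against 20.3 to 359 CPM in the other 7. In the diet comparison at ZT 24, 7 of 7 mammary epithelial markers (median log2 fold change 1.29), 5 of 5 brown adipocyte markers (0.91) and 6 of 6 macrophage markers (0.75) had positive values, and 1 of 9 adipocyte markers did (median -0.41), with none of them called. The part of these transcripts in the Lpl values was not tested.

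Angptl8 ranged from 5.71 to 330 CPM among the adipocyte-rich libraries, with 164, 330 and 128 CPM at ZT 20 and 5.71 to 44.3 CPM in the 4 libraries of ZT 24. Angptl4 ranged from 121 to 665 CPM and Gpihbp1 from 31.9 to 75.0 CPM. The library with the most Angptl4, AIN93G replicate 2 at ZT 16, had 15.1 CPM of Angptl8. None of these 3 genes was called for ZT 20 against ZT 16 or for diet at ZT 24, and ZT 20 was not tested against ZT 24.

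By the correlation of log2 CPM over the 32 liver libraries, the genes most like Lipc were Rdh7 (r = 0.881), Gabarapl1 and Serpinf2, and those most like Angptl4 were Slc25a47 (r = 0.888), Lgals4 and Eci2. For Angptl6 they were Colec11 (r = 0.839), Ecm1 and Igfbp7, and for Gpihbp1 Rplp1 (r = 0.772), Cst3 and Ccdc12. For Lpl they were Kcnj2 (r = 0.734), Srl and Tpm1, and for Angptl8 Zfp143 (r = 0.729), A230083G16Rik and Nuak2. The share of genes with r over 0.5 was between 0.829% for Angptl8 and 5.28% for Gpihbp1. The libraries share diet, time and depth, and Srl and Tpm1 are genes of muscle that stand beside the muscle transcripts of 1 library.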

How the data were processed

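The deposited values are whole-number read counts, 1 per gene and library, for 42 poly(A) paired-end libraries. The submitters' processing notes name fastp, STAR, HTSeq 0.6.1, DESeq and the build mm10; strand setting and annotation release are not given in the sources used here. CPM, RPKM, fits and correlations were computed from these deposited counts. The 13394 of 54532 genes averaging 25 or more counts were tested with edgeR 4.0.16 (TMM scaling, quasi-likelihood F-test, Benjamini-Hochberg adjustment), and DESeq2 1.42.0 was an alternative. Fold changes come from TMM fits, CPM from library totals (14592481 to 21368409). Diet at 1 time used that time's 6 libraries, other liver comparisons the 24 or 18 libraries named, and adipocyte-rich comparisons 1 fit of 10. Alternatives were DESeq2, other scaling and filters, libraries, times or phase labels left out, and other fits, with those by marker transcripts, and by phase label in the time tests, chosen after seeing the data. Cosine fits used log2 CPM with a prior count of 2. The tests were also run on simulated counts, and the outcome is not given here. Named genes were the 6 members, called genes of the lists, and the 3 genes most like each member. The members and lists were chosen with earlier results of these data known.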

Additional observations from a re-analysis of the deposited data

How the results depend on the processing

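No paired analysis was possible because replicate numbers were given in accession order and pair no libraries. The titles of 18 libraries share 8 leading numbers across times of 1 diet, whose meaning is not given in the sources used here. Over 13394 genes, deviations from the group means correlated at -0.242 to 0.181 (median 0.0359) in the 8 liver pairs with a shared number, with 1 over 0.1, and at -0.3 to 0.37 in 181 other pairs of libraries of 1 diet at other times, a check added after seeing the data. No block was fitted on them. The 4 members called at ZT 16 and the 4 at ZT 20 were called under each alternative that could test them: DESeq2, library-size scaling, both filters and each library left out (Lipc had no value under the stricter filter). No called value changed direction. With no filter on low counts, members called went from 0 to 2 at ZT 0, 1 at ZT 8, 1 for diet over ZT 0 to ZT 12, 1 for time on AIN93G and 3 for time on the HFD. For time on the HFD DESeq2 called 2, the fit without ZT 12 and the cosine fit 1 each, and leaving out 1 library 0 to 2 (2 without HFD replicate 3 at ZT 12, 1 without HFD replicate 2 at ZT 16 or HFD replicate 3 at ZT 20). DESeq2 called 1 in the diet comparison of adipocyte-rich libraries at ZT 24. The causes were not tested.

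Counts over all genes moved more. The 14 called at ZT 0 became 106 with DESeq2, 453 unfiltered, 9 with the stricter filter, 0 in 1 fit of 4 times and 1 to 35 with a library left out. The 18 for diet over ZT 0 to ZT 12 became 79 with DESeq2, 86 unfiltered, 28 with library-size scaling, 86 without ZT 12, 101 in light-labelled libraries, 5 without both libraries of other tissue transcripts and 1 to 124 with a library left out. The 7 for time on AIN93G became 238 with DESeq2, 818 unfiltered, 15 with library-size scaling, 418 without ZT 12, 0 with AIN93G alone, 362 in light-labelled libraries, 1 without both libraries of other tissue transcripts and 2 to 248 with a library left out. The 307 for time on the HFD became 1511 with DESeq2, 2333 unfiltered, 602 without ZT 12, 983 as a cosine, 192 in light-labelled libraries and 167 to 1035 with a library left out. Where 0 were called, no filter gave 182 at ZT 4, 252 at ZT 8 and 78 for diet by time, and DESeq2 48 in place of 1 for ZT 20 against ZT 16. Of 1330 member values under alternatives, 24 were newly called, 0 were lost and 43 uncalled ones changed sign. With 3 libraries a group, differences within the intervals given could not be shown.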
